A study of Populus trichocarpa with 24 samples.

Results

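Loci shared by leaf and shoot tip were the 178 loci of black cottonwood (Populus trichocarpa) that were abundant in both of these organs and scarce in phloem, primary root and xylem. They are 0.431% of the 41335 loci counted. Members were selected on measured values: counts were expressed as CPM, the count of a locus scaled to a library total of 1e6 counts, and the 3 libraries of a group were averaged. The lower of the leaf and shoot tip means had to reach 50 CPM and to be at least 8 times the largest of the phloem, root and xylem means. By the same limits 666 loci stood out in leaf and 350 in shoot tip, whatever the other organ did. The shared loci are 26.7% of the first set and 50.9% of the second.

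RNA was sequenced from 24 libraries, in 8 groups of 3. The labels name the species and give no genotype, transgene or treatment for any group. All groups carry the age of 6 months, although the primary roots are described as taken from young seedlings rooted in water. The trees grew in a greenhouse: leaf was young but fully expanded, shoot tip ran from the first to the third internode and so includes young stem, phloem was scraped from the inner bark, and xylem was scraped from debarked stems. Another 3 groups were laser-captured from wood: fibers, vessels, and another capture that pooled these with ray cells and is named the mix here. RNA of the captures alone was amplified before sequencing, so amplification and cell type cannot be told apart when captures are set beside tissues. Nothing in the labels says that replicates were different trees, and p-values then reflect the spread among these libraries, which may be technical.

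Leaves are the main site of photosynthesis, and their surface is sealed by an epidermis with a waxy cuticle. A shoot tip holds the apical meristem, which forms new leaves and stem, together with leaf primordia and young internodes that are already green. Roots and the inner tissues of the stem are mostly not photosynthetic, phloem carries sugars, and xylem carries water in vessels and gains strength from fibers. The files do not pair the locus identifiers with gene names, so what each of the 178 loci encodes is not given here, and tissues could not be checked against marker genes. In bulk tissue fewer cells of a type and less RNA per cell cannot be told apart.

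The 178 loci together held a sizeable part of all counts in leaf and shoot tip and very few in the other tissues. Their summed share of the library was 15.05%, 15.6% and 14.8% in the 3 leaf libraries and 8.44%, 9.51% and 7.74% in the 3 shoot tip libraries. It was 0.219% ± 0.0174 (SD, n = 3) in phloem, 0.101% ± 0.0125 in root and 0.110% ± 0.0281 in xylem. The gap between these tissues and the green organs follows from how the loci were selected and was not tested. In all 178 loci every leaf and shoot tip library lay above every phloem, root and xylem library.

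**Figure D1:**
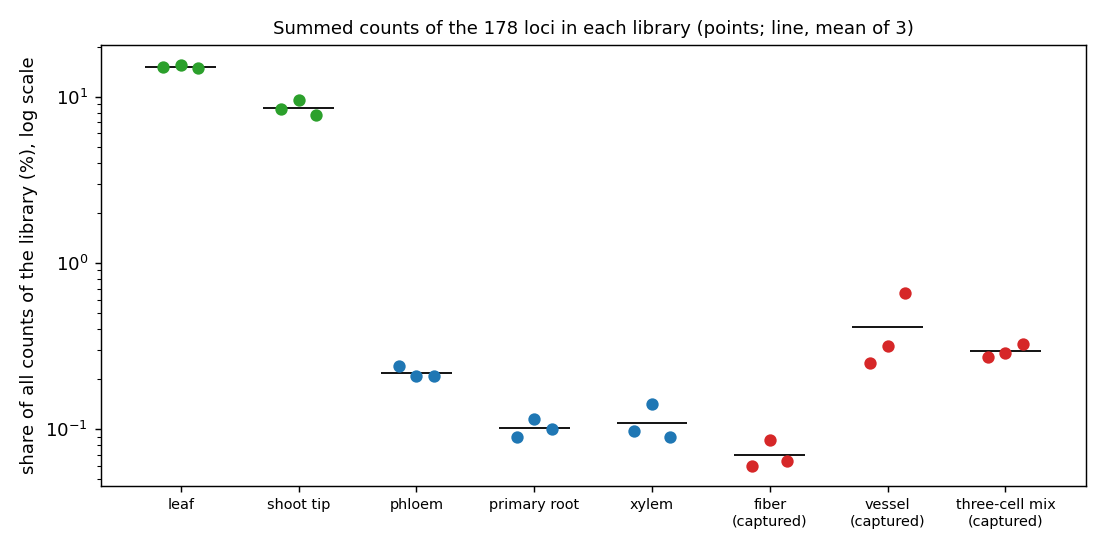
Summed counts of the 178 loci as a percent of all counts of each library (log scale), by group; points are libraries and lines are means of 3. Leaf lies near 15.1% and shoot tip near 8.56%, phloem, root and xylem libraries at 0.239% or less, and the vessel captures (0.250% to 0.662%) lie above the fiber captures (0.0602% to 0.0864%).

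The lower of the leaf and shoot tip means had a median of 115 CPM over the loci and ran from 50.2 to 2802 CPM. It reached 1000 CPM in 13 loci and stayed under 100 CPM in 75. The ratio of that mean to the largest of the other tissues had a median of 24.2, ran from 8.14 to 385, and reached 100 in 39 loci. The highest of the other tissues was phloem for 81 loci, xylem for 68 and root for 29. Near the lower limit on level, Potri.011G152100 (50.2 CPM) and Potri.005G186800 (50.3 CPM) were just inside, and Potri.013G041700 (49.9 CPM) and Potri.005G109300 (49.8 CPM) just outside. Near the limit on the ratio, Potri.015G108100 (8.14) and Potri.014G136600 (8.17) were just inside, and Potri.013G122900 (7.89) and Potri.001G379000 (7.88) just outside.

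**Figure D2:**
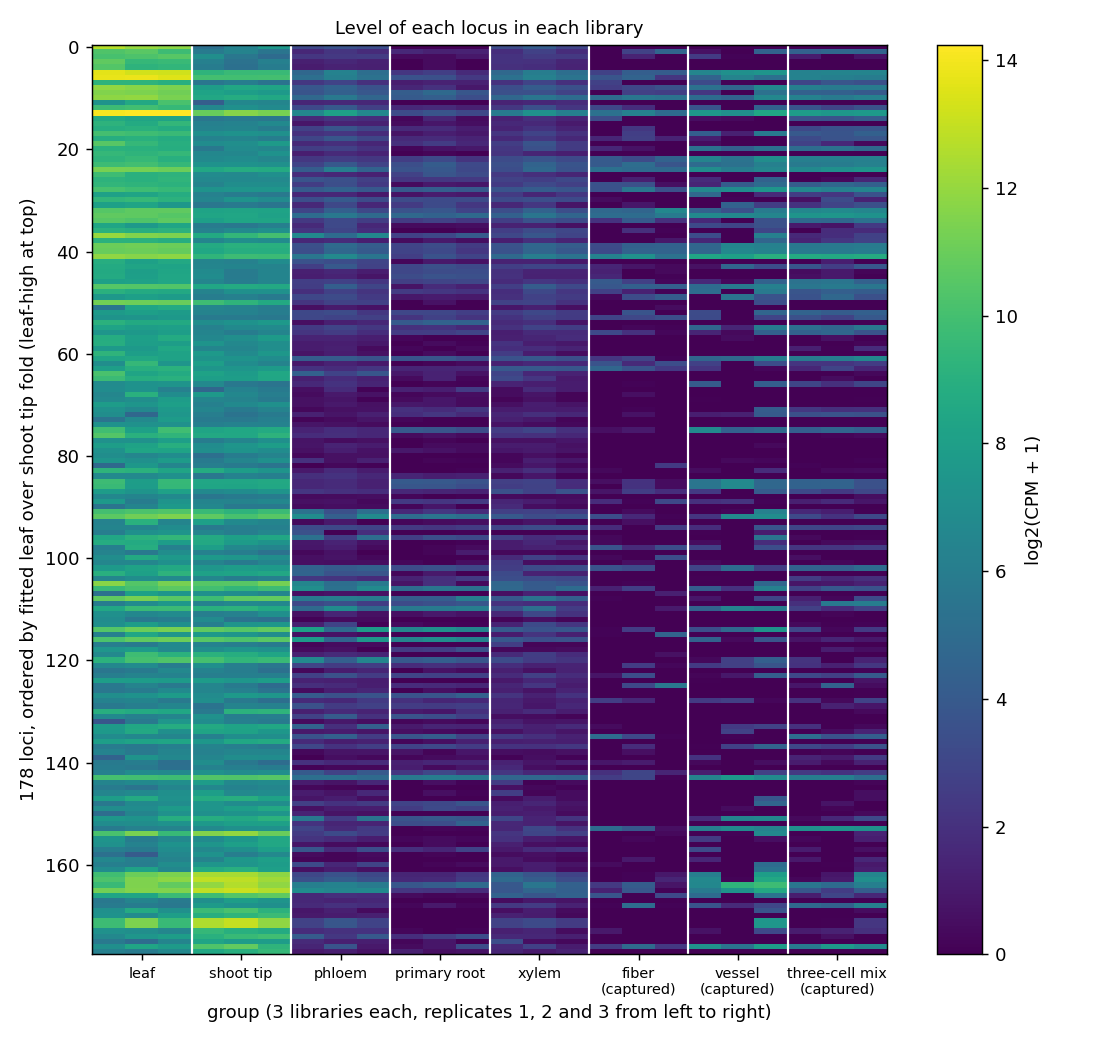
Level of each of the 178 loci (rows) in each of the 24 libraries (columns) as log2(CPM + 1), ordered by the fitted leaf over shoot tip fold with leaf-high loci at the top. Leaf and shoot tip columns are bright throughout because the loci were selected on them; the fiber columns are dark for the 79 loci with no count there.

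Counts were concentrated in few loci. In leaf 4 loci held 31.5% of the summed CPM and in shoot tip 4 loci held 30.0%. CPM is not divided by transcript length, so levels of different loci are shares of counts and are not compared as transcript numbers.

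The 4 loci with the highest lower mean were Potri.019G031200, Potri.006G166700, Potri.017G114600 and Potri.006G166800. Potri.017G114600 reached 17443, 19404 and 19126 CPM in leaf and 1961, 3169 and 2602 CPM in shoot tip, against 160 ± 108 CPM in phloem (SD, n = 3), where replicate 2 stood highest at 285 CPM. Its leaf libraries all lay above its shoot tip libraries. Potri.019G031200 had the reverse order, with 2413, 2988 and 3007 CPM in leaf and 7448, 8726 and 6231 CPM in shoot tip, again with no overlap. Potri.006G166700 and Potri.006G166800, which carry consecutive identifiers, moved together across libraries: leaf replicate 1 was lowest in both (1239 and 952 CPM), and shoot tip lay at 6454 ± 1558 and 4785 ± 1052 CPM.

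The loci with the largest ratios were Potri.006G028000 (385) and Potri.013G082700 (345). Potri.006G028000 was uneven among its replicates, with 77.2, 521 and 86.6 CPM in leaf and 262, 108 and 85.4 CPM in shoot tip, so that replicate 2 carried most of its leaf level. Its highest value outside these organs in the tissues was 0.939 CPM, in phloem replicate 2. Potri.013G082700 ran from 144 to 424 CPM in leaf and from 297 to 484 CPM in shoot tip, and had no count in root, where 3 counts over the group would be 0.129 CPM. Such limits and bounds cover counting error only.

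Leaf was compared with shoot tip because the selection set a minimum for both but no direction between them. More loci were higher in leaf: 97 of 178 (54.5%) were called higher in leaf, where a call needs an adjusted p below 0.05 in edgeR's quasi-likelihood test and a log2 fold of 1 or more in size, and 17.4% of all 31308 loci tested were called so. In the other direction 7 of 178 (3.93%) were called higher in shoot tip, against 12.4% of all loci. The remaining 74 were not called, with log2 folds between -1.81 and 1.36. The median log2 fold of leaf over shoot tip was 1.38 for the 178 loci and 0.08 for all loci tested. Both means entered the selection through their minimum, so these shares describe the selected loci beside an unselected background and nothing further is read from the difference.

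These calls depend on the scaling of the libraries. Folds use library sizes scaled by TMM (trimmed mean of M values), with factors of 0.645 to 0.741 in leaf and 1.02 to 1.39 in shoot tip, root and xylem, while CPM levels given here are unscaled. On unscaled totals the median of all loci shifted to -0.51 and that of the 178 loci to 0.77, and 66 were called higher in leaf (10.5% of all loci were) and 20 in shoot tip (25.9% of all). In unscaled CPM the leaf mean lay above the shoot tip mean in 130 loci and below it in 48. All leaf libraries lay above all shoot tip libraries in 76 of the 178 loci, against 14.7% of all loci tested, and the reverse held in 23, against 43.1%. With leaf replicate 1 left out the count of 7 higher in shoot tip became 2 (3484 of all 32010 loci tested were). With shoot tip replicate 2 left out that count became 3 (3692 of all 32103).

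**Figure D3:**
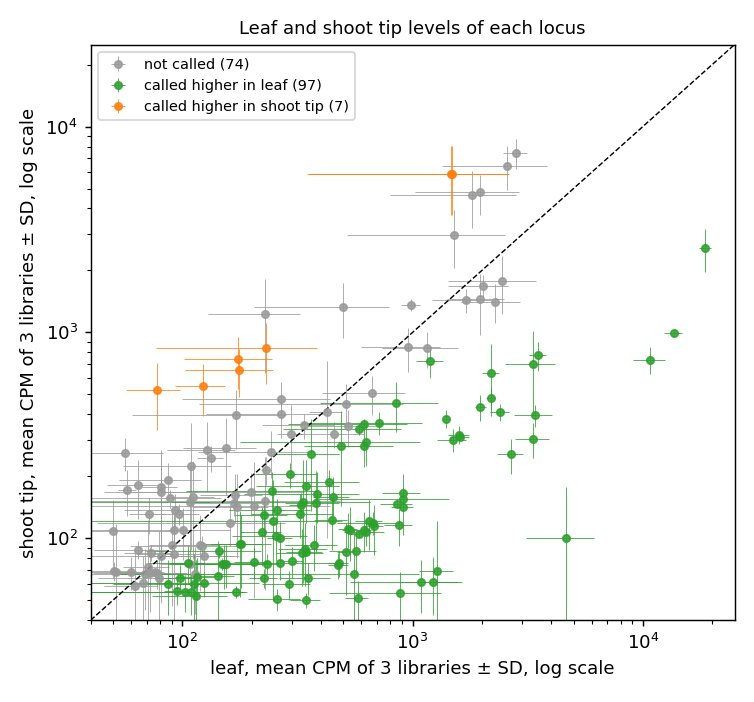
Mean CPM in leaf (x) and shoot tip (y) of each of the 178 loci, both unscaled and on log scales, with bars of 1 SD over 3 libraries and a dashed line of equality. The 97 loci called higher in leaf lie below the line and the 7 called higher in shoot tip lie above it. The test used scaled library sizes, which move the leaf values up relative to the shoot tip values drawn here.

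Among called loci without overlap of libraries, the 2 largest leaf-ward folds were those of Potri.009G129900 and Potri.001G394400. Potri.009G129900 had 6353, 4139 and 3439 CPM in leaf and 36.2, 78.4 and 187 CPM in shoot tip, a log2 fold of 6.14 ± 0.70 (SE; edgeR adjusted p = 2.2e-05). Potri.001G394400 had 1260, 1564 and 872 CPM in leaf and 56.5, 82.8 and 45.5 CPM in shoot tip, a log2 fold of 4.96 ± 0.40 (edgeR adjusted p = 5.5e-07). In shoot tip Potri.009G129900 was lowest in replicate 1. For Potri.017G114600, whose counts were the most of any member in leaf, the log2 fold was 3.47 ± 0.47 (edgeR adjusted p = 4.3e-05).

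In the direction of shoot tip the largest folds among called loci without overlap were those of Potri.002G253400 and Potri.006G137800. Potri.002G253400 had 72.0, 60.0 and 100 CPM in leaf and 356, 489 and 729 CPM in shoot tip, a log2 fold of leaf over shoot tip of -2.17 ± 0.31 (edgeR adjusted p = 6.6e-05). Potri.006G137800 had 101, 176 and 245 CPM in leaf and 516, 781 and 923 CPM in shoot tip (-1.51 ± 0.51, edgeR adjusted p = 0.029). Both were picked among loci without overlap, so their separation adds no support to the calls. The call of Potri.006G137800 was lost without leaf replicate 1 or 2 or shoot tip replicate 2 or 3, with adjusted p between 0.065 and 0.10 in edgeR's test. Potri.019G031200, with a log2 fold of -0.80 ± 0.29 (edgeR adjusted p = 0.039), missed the minimum fold and was not called.

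Levels in phloem, root and xylem were limited from above by the selection, which set no order among the 3 tissues. All 3 means entered the selection through the largest of them, so shares called among them are descriptions beside an unselected background. In unscaled CPM root had the lowest mean in 118 of the 178 loci, xylem in 42 and phloem in 18. The same count over all loci is not given here, so it is not read as a trait of the 178 loci. By edgeR's quasi-likelihood test 105 of the 178 loci (59.0%) were higher in phloem than in root, against 23.6% of all loci tested, and 12 (6.74%) were higher in root, against 27.8%. Xylem exceeded root in 100 loci (56.2%), against 21.2% of all, and root exceeded xylem in 20 (11.2%), against 27.4%. Phloem and xylem were closer: 40 loci (22.5%) were higher in phloem, against 18.7% of all, and 13 (7.30%) in xylem, against 17.3%. The last count was 7 without phloem replicate 1 (4979 of all 32077 loci tested were), and the 3 comparisons share their libraries.

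Median log2 folds showed the same order. For phloem over root it was 2.09 (all loci -0.02), for root over xylem -1.89 (all loci 0.05) and for phloem over xylem 0.19 (all loci 0). With loci at no count set to a bound of 3 counts over the group, the first was 1.97 and the second -1.82. On unscaled totals the medians of phloem over root were 1.64 for the 178 loci and -0.48 for all, and those of root over xylem -1.50 and 0.44, so the direction relative to all loci stayed. Root had no count in 24 of the 178 loci (13.5%), xylem in 1 and phloem in 0, where the shares of all loci with no count were 15.5%, 17.8% and 19.2%.

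Potri.009G129900 and Potri.013G080500 had the largest fitted folds of phloem and of xylem over root among called loci without overlap. Potri.009G129900 had 7.34, 11.2 and 9.32 CPM in phloem, 9.11, 16.9 and 6.47 CPM in xylem and no count in any root library, so it was at least 96.3-fold higher in phloem and at least 108-fold higher in xylem than in root. Potri.013G080500 had 6.12, 13.1 and 6.39 CPM in phloem and 5.93, 8.32 and 4.59 CPM in xylem, again with no count in root, and was at least 90.8-fold and 63.3-fold higher there. Every such value remained far under its leaf level, which was 856, 2788 and 800 CPM for Potri.013G080500.

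A few loci went the other way and were higher in root. Potri.006G099900 had 4.57, 5.34 and 10.5 CPM in root, 0.326, 0.548 and 0 CPM in phloem and 0.260, 0.292 and 0.410 CPM in xylem. Its log2 fold was -4.02 ± 0.55 for phloem over root (edgeR adjusted p = 2.1e-05) and 4.06 ± 0.52 for root over xylem (edgeR adjusted p = 1.2e-05). Potri.016G113100, with 15.3, 21.4 and 21.1 CPM in root against 0.490, 1.41 and 1.84 CPM in phloem, had a log2 fold of phloem over root of -3.46 ± 0.52 (edgeR adjusted p = 5.1e-05). In all, 10 of the 178 loci were called higher in root than in both phloem and xylem, against 18.9% of all loci tested.

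Phloem was called above both root and xylem in 29 of the 178 loci, against 10.1% of all loci, and xylem above both others in 10, against 8.51%. Potri.010G050300 was low in xylem, with 0.416, 0.365 and 0.164 CPM there, 5.63, 16.0 and 3.03 CPM in phloem and 11.6, 9.22 and 5.28 CPM in root. Its log2 fold was 4.62 ± 0.60 for phloem over xylem (edgeR adjusted p = 2e-05) and 4.27 ± 0.61 for root over xylem (edgeR adjusted p = 3e-05). Potri.003G066800 held the most phloem counts of any member, with 273, 28.9 and 223 CPM against 16.1, 11.2 and 13.2 CPM in xylem (log2 fold 3.90 ± 0.64, edgeR adjusted p = 0.00016). Its phloem replicate 2 stood far below the other replicates.

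By the same rule the loci named as higher in xylem than in phloem were Potri.018G089200 and Potri.010G096000. Potri.018G089200 had 2.29, 5.70 and 3.28 CPM in xylem and 0.490, 0.704 and 0.217 CPM in phloem, a log2 fold of phloem over xylem of -2.86 ± 0.55 (edgeR adjusted p = 0.00094). Potri.010G096000 had 21.5, 13.3 and 21.2 CPM in xylem and 2.04, 2.74 and 2.49 CPM in phloem (-2.83 ± 0.41, edgeR adjusted p = 6e-05). Both were picked for groups without overlap, so their separation adds no support to the calls.

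The captured wood cells played no part in the selection. Many of the 178 loci had no count there: fiber lacked 79 of them (44.4%), vessel 67 (37.6%) and the mix 41 (23.0%). The shares of all loci with no count were 39.2%, 37.9% and 25.3% for these groups in the same order. Fiber had 33.7% of the 178 loci at 1 CPM or more (49.8% of all loci), vessel had 52.2% (51.5%) and the mix 50.6% (56.1%). None of the 9 capture libraries had a count for 33 of the 178 loci, beside 9173 of all 41335 loci. A count in all 9 was found for 29 loci. Where a locus had a count, 1 library often held over 90% of its CPM, as in 44 of 99 loci for fiber, 42 of 111 for vessel and 37 of 137 for the mix. Shares over all loci are not given for these counts or for the 29, so they are not read as traits of the 178 loci.

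Vessel captures held more counts of these loci than fiber captures. The summed share was 0.250%, 0.317% and 0.662% in vessel, highest in replicate 3, and 0.0602%, 0.0864% and 0.0639% in fiber, with no overlap, while the mix had 0.294% ± 0.0264 (SD, n = 3). Of the 178 loci 87 passed the filter on low counts in the captures. By edgeR's quasi-likelihood test 17 were called higher in vessel, which is 9.55% of the 178 and 19.5% of the 87 tested, beside 3.19% of all 22828 loci tested. In fiber 0 were called higher, beside 2.86% of all. At an unadjusted p under 0.05, 39 loci were higher in vessel (12% of all loci tested) and 3 in fiber (11.9% of all). DESeq2 called 36 in vessel (10.8% of all loci it tested) and 2 in fiber (9.21% of all). Loci without counts in fiber passed the filter through vessel or the mix, where they are high, so the shares of the 87 are partly set by the filter.

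The count of 17 varied with the libraries fitted. It was 1 without fiber replicate 1, 5 without fiber replicate 3, 11 without fiber replicate 2 and 7 without vessel replicate 3, whereas it was 17 without vessel replicate 1 and 18 without vessel replicate 2. Calls over all loci in this direction fell too, from 728 to 322, 391, 420 and 577 in the first 4 of these fits. With the 6 libraries fitted alone the count was 3, beside 318 of all 18849 loci tested. In all 17 loci every vessel library lay above every fiber library, the vessel mean exceeded the mean of xylem tissue, and the mix mean exceeded the fiber mean. The loci were called on these same vessel and fiber libraries, so their separation adds no support to the calls. Shares over all loci are not given for these counts, and vessel beside xylem tissue sets amplified against unamplified RNA. Of them 11 were also among the loci higher in leaf than in shoot tip, a set that holds 54.5% of all members. The biological coefficient of variation was 111% in the captures and 27.5% in the tissues.

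Potri.018G051300 and Potri.017G098000 had the largest fitted vessel folds among called loci without overlap. Both had no count in fiber, so their folds are lower bounds and do not rank them. The bounds use counts pooled over the libraries of a group and cover counting error only, not the spread among replicates. Potri.018G051300 had 2.31, 84.4 and 96.2 CPM in vessel (edgeR adjusted p = 0.022). On pooled counts this was at least 510-fold more than fiber, but vessel replicate 1 gave little of it. The call was lost when any 1 fiber library or vessel replicate 3 was left out, with adjusted p of 0.054 to 0.069 in edgeR's test. Potri.017G098000 was more even, with 8.30, 6.90 and 10.7 CPM, on pooled counts at least 77.3-fold more than fiber. Its adjusted p in edgeR's test was 0.0499, and between 0.055 and 0.15 in the 8 alternatives in which the call was lost. Among these was the fit with no filter on low counts, with an adjusted p of 0.078 in edgeR's test.

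Loci with the most counts in captures repeated between groups. Potri.004G218400 was highest in fiber (78.9, 145 and 39.9 CPM) and in the mix (415, 387 and 434 CPM), and had 336, 274 and 499 CPM in vessel. Its mean in xylem tissue was 45.6 ± 19.2 CPM, and its log2 fold of fiber over vessel was -1.98 ± 0.44 (edgeR adjusted p = 0.026). Potri.010G150500 was highest in vessel, with 94.6, 607 and 875 CPM, against 4.09, 16.8 and 0.767 CPM in fiber and 27.1 ± 17.0 CPM in xylem tissue (log2 fold -6.10 ± 1.12, edgeR adjusted p = 0.012). Potri.018G109700 was the second in fiber, with 27.4, 23.9 and 96.8 CPM, of which replicate 3 gave most, and Potri.017G114600 the second in the mix, with 232, 183 and 206 CPM.

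**Figure D4:**
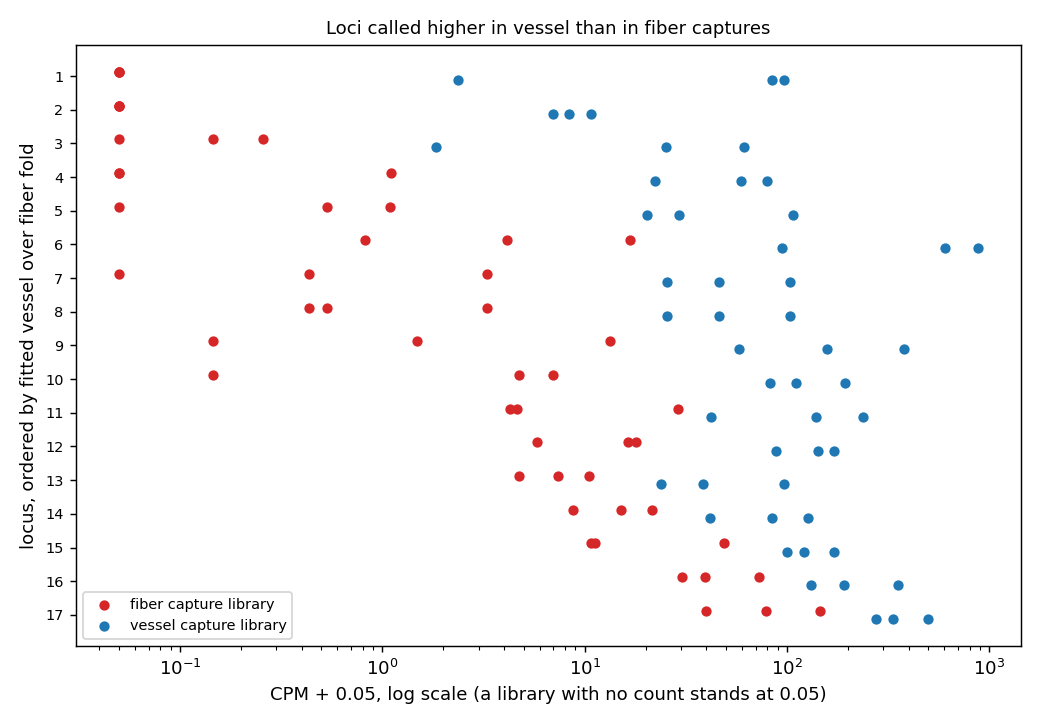
CPM + 0.05 (log scale) of the 17 loci called higher in vessel than in fiber captures, each in 3 fiber (red) and 3 vessel (blue) libraries, ordered by fitted fold; a library with no count stands at 0.05. In every locus all blue points lie to the right of all red points, in the same libraries that gave the calls. Locus 1 is Potri.018G051300 with its lowest vessel library at 2.31 CPM.

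Levels in the captures are given here by the leaf and shoot tip call, and no difference between these sets was tested. The median over loci of the mean in the mix was 3.51 CPM for the 97 loci higher in leaf, 0.438 CPM for the 74 not called and 0.177 CPM for the 7 higher in shoot tip. In fiber 36.1% of the first set had no count, 51.4% of the second and 6 of 7 of the third. In vessel the medians were 3.30, 0.314 and 2.81 CPM in the same order. The last rests on few and uneven loci: 3 of the 7 had no count in vessel, and the highest mean was 60.4 CPM. That highest mean, of Potri.013G080500, came from vessel replicate 3 alone (0, 0 and 2067 counts), so no likeness between the sets is read from the medians. Loci with no count in the mix were 21.6%, 24.3% and 28.6% of the sets. These are descriptions of sets that also differ in level in leaf, with medians of 450.1 CPM for loci higher in leaf and 126 CPM for those not called.

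Many members carry neighbouring identifiers. Locus identifiers state a chromosome and a running number, and steps in the number are used here in place of positions, since no genome was given. Of the 178 loci 60 (33.7%) had another member within 5 identifiers, whereas 1485 of all 41335 loci (3.59%) had a member that near. They formed 24 runs, of which 16 held 2 members, 4 held 3 and 4 held 4. By the identifiers, 16 members are on chromosome 18 (10.5 per 1000 loci), which holds 8.99% of members and 3.69% of all loci. Chromosome 13 has 14 (8.65 per 1000), which is 7.87% of members beside 3.91% of all loci. Chromosomes 11, 12 and 15 have 2 each (1.18, 1.37 and 1.35 per 1000), and unplaced scaffolds have 1 (0.549 per 1000). These are the highest and lowest rates. Loci of a run each count here, and no difference between chromosomes was tested.

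Members of a run often shared their pattern, though not always. The 4 loci from Potri.008G157800 to Potri.008G158200 were all called higher in leaf, with log2 folds of 1.37 to 1.60, and leaf replicate 2 was low in those named here (245 CPM against 865 and 738 for Potri.008G157900, 273 against 943 and 923 for Potri.008G158200). The 3 loci from Potri.014G152300 to Potri.014G152900 were also all higher in leaf, with log2 folds of 1.89 to 4.81. In the 4 loci from Potri.003G066400 to Potri.003G066800 none was called, with log2 folds of 0.85 to 1.30.

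Other runs were mixed. In the 3 loci from Potri.019G024600 to Potri.019G024800 leaf was called higher in 2 and shoot tip in 1, with log2 folds from -1.32 to 3.59. In the 4 loci from Potri.016G135500 to Potri.016G136000 folds ran from -1.59 to 1.44, with 2 called for leaf. The run from Potri.018G089200 to Potri.018G089500 had 3 of 4 called for leaf. On chromosome 13 the runs from Potri.013G080300 to Potri.013G080500 and from Potri.013G082600 to Potri.013G082800 held 3 of the 7 loci called for shoot tip, and none of the 6 loci had a count in root. The 3 called loci include Potri.013G080500 and Potri.013G082800, whose counts were nearly the same.

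**Figure D5:**
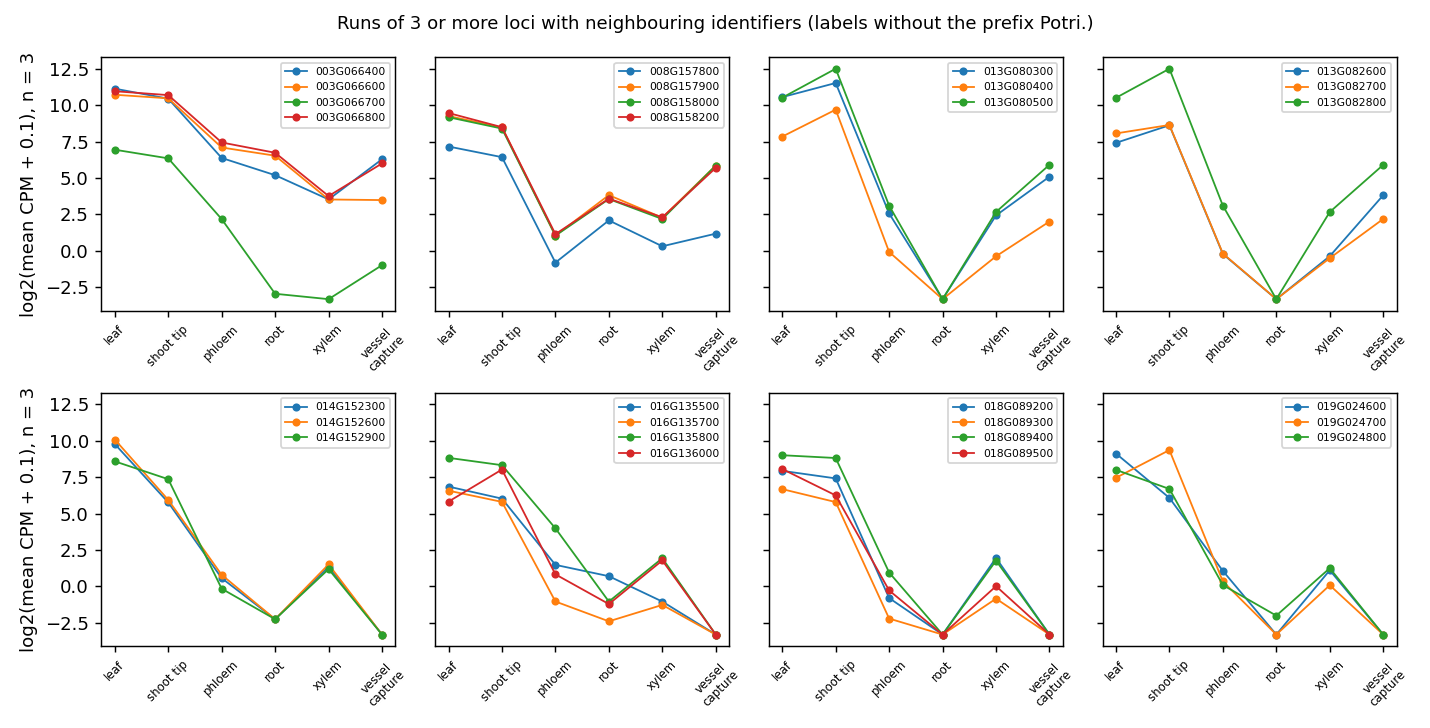
Means of 3 libraries as log2(CPM + 0.1) in leaf, shoot tip, phloem, root, xylem and captured vessel cells, for the 8 runs of 3 or more loci with neighbouring identifiers; each line is 1 locus. All 3 lines of the panel that begins at Potri.014G152300 fall from leaf to shoot tip, 1 of them less steeply, while in the panel of Potri.019G024600 the locus Potri.019G024700 is higher in shoot tip and the others in leaf.

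Some members had near-identical counts. They were not merged, so every number of loci given here counts each of them. For 8 pairs, 16 members in all, the summed absolute difference of counts over the 24 libraries was at most 5% of their summed counts. The identifiers were within 5 of each other in 4 of the pairs, and in 2 they name different chromosomes or an unplaced scaffold. Potri.013G080500 and Potri.013G082800, both among the 7 loci called higher in shoot tip, differed by 0.276%. They had equal counts in 15 of the 24 libraries, in 9 of which both had none. Potri.016G106900 and Potri.016G108900 differed by 0.384%. Potri.008G157900 and Potri.008G158000, both among the 17 loci higher in vessel, differed by 2.61%. The match was not even in all groups: in phloem Potri.010G151200 had 38, 7 and 14 counts and Potri.015G089700, its pair, 8, 5 and 5. Leaf and shoot tip hold most counts, so the 5% limit can miss pairs that are alike elsewhere. Potri.001G015500 and Potri.001G015600, outside the 8 pairs, had equal counts in every capture library. The same held for Potri.006G030000 and Potri.006G030200, so members outside the 8 pairs may be affected too. No source used here says how reads that fit more than 1 locus were counted. Without sequences, whether the members of a pair share reads was not tested. Levels of these loci are uncertain, and the members of a pair may not be independent.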

How the data were processed

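Counts per locus were deposited by the authors as 1 table of raw, whole-number counts for 24 libraries. The submitters' processing notes list TopHat, a read aligner, and give no version. No source used here states the counting tool, the genome build or the strand setting. All columns matched a sample title. The reference table (P.trichocarpa_v4.1) matched 0 of 41335 identifiers, so names, positions, sequences, gene lists and marker lists could not be used.

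Library totals ran from 5689642 to 30917688 counts. Replicates differed beyond sampling noise (chi-square per degree of freedom 5.50 to 225.2), and none was merged. CPM for levels were computed on unscaled totals. Tests used edgeR 4.0.16 in R 4.3.3 with limma 3.58.1 (filterByExpr, TMM, quasi-likelihood test, Benjamini-Hochberg adjustment over all loci tested), fitting the 15 tissue libraries together (31308 loci) and the 9 captures together (22828 loci); standard errors were taken as the size of the log2 fold over the square root of F. DESeq2 1.42.0, other scalings, filters, subsets and left-out replicates were alternatives, and the method was tested on simulated data. Phloem replicate 3 stood apart in its TMM factor (0.706, against 1.11 and 1.12).

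The members, the lists and the tests were chosen with earlier results of these data known. Named loci are the 4 with the highest lower mean, the 2 with the largest fold in each direction of a tested comparison among calls without overlap, the 2 largest ratios, the 2 on each side of each limit, and the 2 highest in each capture group. Loci in runs or near-identical pairs were named after their values were seen. Folds against groups without any count are lower bounds that assume 3 counts in that group, on scaled library sizes. They pool the libraries of each group and leave out the spread among replicates. Whether equal replicate numbers pair libraries was checked by the correlation of their deviations from the group mean. Phloem with xylem exceeded 0.1 for every number (0.12, 0.31 and 0.14), and the other compared groups did not. Libraries of unequal number were not correlated, so this check cannot establish a pairing, which the labels do not state.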

Additional observations from a re-analysis of the deposited data

How the results depend on the processing

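Other limits changed the number of loci selected, to 103 with a minimum of 100 CPM and to 295 with a ratio of 4. Leaving out 1 tissue library at a time gave 172 to 184 loci. Loci called higher in shoot tip than in leaf numbered 20 on unscaled totals (8118 of all 31308 loci tested). With 1 library left out they numbered 2 to 7 (3376 to 4111 of all loci), and those higher in leaf 84 to 97 (4981 to 5818). Without scaling 31 loci were higher in root than in xylem (10736 of all 31308 loci tested were). With the 6 libraries fitted alone 66 were higher in xylem than in root (6525 of all 28570). Loci higher in xylem than in phloem numbered 7 to 19 with 1 library left out (4935 to 5769 of all loci). In the captures, loci higher in vessel numbered 36 by DESeq2 (2307 of all 21308 loci tested) and 3 with the 6 libraries alone (318 of 18849). With 1 library left out they numbered 1 to 18 (322 to 817 of all loci). Loci higher in fiber numbered 2 by DESeq2 (1962 of 21308) and 1 with no filter on low counts (629 of 32162). With 1 library left out loci higher in fiber numbered 0 to 1 (277 to 1223 of all loci). The causes were not tested. A fit with the replicate block gave 100 loci higher in leaf (5453 of all 31308 loci tested) and 7 in shoot tip (3947). Phloem over root gave 104 (7375) and root over phloem 12 (8831), phloem over xylem 40 (5901) and xylem over phloem 13 (5502). Root over xylem gave 23 (8742) and xylem over root 102 (6630). In the captures it gave 13 in vessel (497 of all 22828) and 0 in fiber (431). The labels give these samples a shared number and state no pairing. Of 234 repeats for 18 named folds 218 kept direction and call, 16 lost the call and 0 reversed. Repeats that only dropped the minimum fold reused the main fit, so they could neither lose a call nor reverse. The 18 folds were picked as the largest among calls without overlap, which favours keeping the call. Depth was lowest in root, where no count over the group allows up to 0.129 CPM, and next in fiber, with 0.106 CPM.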
